A study of Mus musculus with 5 samples.

Results

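Regions of open chromatin that lay between genes, within 100 kb of one, and that carried a peak in limb ectoderm but not in forebrain, are described here. They were chosen from the peak lists themselves. All peaks on chromosomes 1 to 19 and X were joined wherever they shared at least 1 bp, which gave 231437 regions. A region was taken if every one of the 4 ectoderm libraries, but not forebrain, had a peak in it, and if its midpoint lay outside protein-coding genes, more than 2.5 kb and at most 100 kb from the nearest protein-coding gene end (mm10). This gave 1716 regions, called here the ectoderm-only intergenic regions.

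The data are ATAC-seq peaks from mouse embryos of the CD1 stock, for which the labels give no transgene, mutation or treatment. FDE stands for ectoderm of the distal forelimb and HDE for ectoderm of the distal hindlimb, each with 2 libraries at E14.5 (embryonic day), and FB for forebrain, with 1 library at E13.5. Ectoderm had been peeled from the mesoderm beneath it with trypsin, while forebrain had been dissociated with collagenase, so tissue, stage and dissociation cannot be told apart in any difference between them. The labels do not say whether embryos were pooled or whether the replicates came from separate litters, and their spread may be technical only.

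ATAC-seq reads out DNA that a transposase can reach, which in a nucleus is mostly DNA free of nucleosomes. Away from gene ends such sites are often enhancers, short stretches that bind transcription factors and act on a gene at a distance, and they differ more between tissues than promoters do. In the skin, factors such as Trp63, AP-2, AP-1 and grainyhead-like proteins are known to bind them. Open chromatin alone does not show that a site is an enhancer, nor which gene it acts on, and the nearest gene is named below only to say where a region lies.

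No genome sequence was used here, so base sequence is shown for the places where an ectoderm-only intergenic region met a RefSeq promoter window (GRCm38.p6), which runs from 250 bases before a gene's start to 50 after it. Since regions near protein-coding ends were outside the rule, these are promoters of long non-coding RNA genes (lncRNAs). Of the 1716 regions, 39 (2.27%, 95% interval 1.62 to 3.09) overlapped such a window, and 15 had the summits of all 4 ectoderm libraries inside it. The following 5 of these were chosen after their values were seen. Gm13648 and Gm35439 ranked highest in the peak lists, Gm28548 holds a repeated AP-2 motif, and Gm38543 and Gm35028 lie nearest to Fos and Prdm1, regulators of keratinocyte differentiation. Each is written 5′ to 3′ on the strand of the lncRNA. Capitals mark matches on either strand to AP-1 (TGANTCA), AP-2 (GCCNNNGGC), grainyhead (AACCGGTT) or TEAD (CATTCC) motifs.
Gm13648: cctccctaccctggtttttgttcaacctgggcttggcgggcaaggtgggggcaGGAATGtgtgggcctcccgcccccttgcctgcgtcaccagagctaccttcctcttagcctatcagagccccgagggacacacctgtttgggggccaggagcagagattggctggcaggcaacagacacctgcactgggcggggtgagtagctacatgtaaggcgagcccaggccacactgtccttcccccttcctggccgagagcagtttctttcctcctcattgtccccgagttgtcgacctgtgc
Gm35439: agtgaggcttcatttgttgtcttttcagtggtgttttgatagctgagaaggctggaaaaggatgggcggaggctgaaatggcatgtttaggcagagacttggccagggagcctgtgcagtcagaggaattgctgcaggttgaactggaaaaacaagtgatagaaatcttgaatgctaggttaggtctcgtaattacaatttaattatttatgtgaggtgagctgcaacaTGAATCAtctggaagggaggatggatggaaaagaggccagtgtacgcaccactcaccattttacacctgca
Gm28548: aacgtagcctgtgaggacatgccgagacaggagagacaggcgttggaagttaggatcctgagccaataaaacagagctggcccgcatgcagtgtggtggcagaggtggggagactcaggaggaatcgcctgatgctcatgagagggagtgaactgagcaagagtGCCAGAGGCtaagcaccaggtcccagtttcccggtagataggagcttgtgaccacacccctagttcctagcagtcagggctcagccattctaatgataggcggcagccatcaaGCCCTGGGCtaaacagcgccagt
Gm38543: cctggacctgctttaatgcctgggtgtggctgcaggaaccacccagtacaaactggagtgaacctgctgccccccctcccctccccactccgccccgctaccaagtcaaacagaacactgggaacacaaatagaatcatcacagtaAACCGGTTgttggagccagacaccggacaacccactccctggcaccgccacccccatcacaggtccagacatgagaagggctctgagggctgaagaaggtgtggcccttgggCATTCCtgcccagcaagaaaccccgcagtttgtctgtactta
Gm35028: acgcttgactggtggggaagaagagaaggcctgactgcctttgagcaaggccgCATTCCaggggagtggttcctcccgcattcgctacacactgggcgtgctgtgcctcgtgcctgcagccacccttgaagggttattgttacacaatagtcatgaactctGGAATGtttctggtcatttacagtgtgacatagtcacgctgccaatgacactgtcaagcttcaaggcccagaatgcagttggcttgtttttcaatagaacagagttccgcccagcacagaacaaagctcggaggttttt

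The Gm13648 window (chr4:156059753-156060052, minus strand) lay in the region with the highest lowest percentile of the 5 (93.4, by rank among the summits of each list). This region was 8.92 kb from Ttll10, which encodes a glycine ligase of the tubulin tyrosine ligase family. Its fold enrichment was 9.91 and 9.24 in FDE replicates 1 and 2 and 5.58 and 11.2 in HDE replicates 1 and 2. The 4 summits fell at positions −113 to −87 relative to the start of the lncRNA, close to each other, and the window held 1 TEAD motif. The Gm35439 window (chr3:92169935-92170234, plus strand) lay 27.4 kb from Lelp1, a gene of the epidermal differentiation complex, the cluster that encodes proteins of the cornified skin surface. Its region had a fold of 10.9 and 9.05 in FDE and 6.70 and 15.5 in HDE, and the window held 1 AP-1 motif.

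The Gm28548 window (chr9:104361581-104361880, plus strand), 24.0 kb from the phosphatase gene Acpp, held 2 AP-2 motifs, and its region had folds of 9.0 and 7.49 in FDE and 4.75 and 10.5 in HDE. The Gm38543 window (chr12:85451801-85452100, plus strand) lay 22.0 kb from Fos, the AP-1 subunit, in a weak region with folds of 3.26 and 2.17 in FDE and 2.38 and 3.19 in HDE. It was the only window of the 39 lncRNAs with the grainyhead motif, a share of 2.56%. The interval of this share starts at 0.0649% and holds the 0.105% found in the windows of all lncRNAs. The Gm35028 window (chr10:44427939-44428238, minus strand), 8.93 kb from Prdm1, held 2 TEAD motifs, with folds of 6.99 and 4.26 in FDE and 3.10 and 7.66 in HDE. HDE replicate 1 gave the lowest fold in 4 of these 5 regions, the exception being that near Fos.

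Of 14 motifs searched in the windows of the 39 lncRNAs, KLF was the one whose interval did not hold the share found over all lncRNAs. Among 14 intervals, 1 that misses can arise from counting error alone, and no correction was made for their number. With 1 window counted per lncRNA, TEAD motifs were found in 11 of 39 windows (28.2%, 15 to 44.9), against 12.9% of 194 lncRNA windows met by intergenic regions with a peak in all 5 libraries and 16.8% of the 9520 windows of all lncRNAs. KLF motifs (GGGNGTGG, searched like the others on both strands) were found in 30.8% (17.0 to 47.6), against 22.2% of windows with all 5 libraries and 14.6% of all lncRNA windows. The KLF interval holds the share of windows with all 5 libraries. The p53-family pattern, which fixes only 4 of its 14 bases, was found in 76.9% of the 39 windows and in 61.6% of all. AP-1 motifs were found in 7.69%, against 7.22% of windows with all 5 libraries and 9.50% of all. AP-2 motifs were found in 5.13%, against 18% of windows with all 5 libraries and 10.8% of all. The 39 windows had a median GC content of 50.7%, against 55.0% for windows with all 5 libraries and 48.7% for all lncRNA windows, and its part in the shares of GC-rich motifs such as AP-2 and KLF was not tested. A match is a run of letters and not a bound site.

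Ectoderm-only regions made up a large part of the intergenic ectoderm regions. Among 3888 intergenic regions near genes with a peak in all 4 ectoderm libraries, the 1716 without a forebrain peak were 44.1% (42.6 to 45.7), and the other 2172 had a peak in all 5 libraries. The same share was 4.10% at gene ends (within 2.5 kb), 42.8% inside protein-coding genes, 61.4% more than 100 kb from any gene and 25.7% over all regions. Intergenic regions near genes thus stood close to regions inside genes and between gene ends and gene deserts. The rule used the forebrain list, so these shares describe the lists and carry no test. With 1 forebrain library no test across samples could be made in any comparison here, and all intervals are exact Clopper-Pearson 95% intervals that cover counting error only.

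A missing peak means that none passed the authors' threshold, and the lists differed in length. Among intergenic regions near genes with a peak in the other 4 libraries, 47.1% of 4105 had none in HDE replicate 1, against 5.11% for FDE replicate 1, 6.42% for FDE replicate 2 and 3.38% for HDE replicate 2. HDE replicate 1 had the shortest list, with 51392 distinct peaks against 73627 to 78075 in the other ectoderm libraries and 120280 in forebrain. The share that this 1 library of limb ectoderm lacked was no smaller than the share that forebrain lacked. Without HDE replicate 1 the rule took 3366 regions in place of 1716, and the ectoderm-only share was within the 44.7% to 45.8% found when any 1 ectoderm library was left out.

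Gene-end peaks at marker genes were counted to set the libraries beside their labels. Of 28 genes of basal epidermis, 25 and 24 had a peak within 1 kb of an end in FDE replicates 1 and 2, 18 and 25 in HDE replicates 1 and 2, and 20 in forebrain. Of 18 neuron genes, 10, 9, 7 and 7 had one in these ectoderm libraries and 18 in forebrain, and of 14 forebrain progenitor genes 7, 5, 5 and 6, against 13 in forebrain. Of 20 genes of limb mesenchyme, the tissue the ectoderm was peeled from, 15, 10, 7 and 13 had one in ectoderm and 16 in forebrain. Counts for melanocytes were 6, 7, 5 and 6 of 10 in ectoderm and 7 in forebrain. Of 21 genes of differentiated epidermis, 12, 11, 9 and 13 had one in ectoderm and 9 in forebrain, and of 20 housekeeping genes 19, 18, 18 and 18, against 18. Those for endothelium were 8, 5, 4 and 5 of 12 in ectoderm and 10 in forebrain, and those for blood and immune cells 4, 4, 1 and 2 of 12 in ectoderm and 5 in forebrain. Counts for both neural lists were higher in forebrain than in every ectoderm library. Counts for both epidermis lists were higher than forebrain in 3 of the 4 ectoderm libraries, by a few genes, and were not in HDE replicate 1. No test was made of these counts, and the part of other cells of the limb in the regions below was not tested.

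In each ectoderm list the ectoderm-only intergenic regions had a median rank above the middle. The rule took only regions with a peak in all 4 lists, and each region's highest-ranked summit was used. Both choices favour high ranks, so a median above the middle is not a result about these regions. The median fold enrichment was 5.53 in FDE replicate 1 and 5.59 in FDE replicate 2. In HDE it was 3.89 in replicate 1 and 7.21 in replicate 2. A region's rank is given as its percentile by −log10 p among all summits of its list. The medians were 74.7 and 77.3 in FDE replicates 1 and 2 and 70.6 and 82.5 in HDE replicates 1 and 2. Intergenic regions with a peak in all 5 libraries had medians of 80.6 and 80.4 in FDE and 71.6 and 81.0 in HDE, which is higher in FDE and in HDE replicate 1 and lower in HDE replicate 2. The top 5% of the list held 2.80% of the ectoderm-only regions in FDE replicate 1, against 8.56% of those with all 5. In FDE replicate 2 it held 5.83% of the ectoderm-only regions against 9.53%, in HDE replicate 1 it held 2.39% against 4.51%, and in HDE replicate 2 it held 6.82% against 8.66%.

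**Figure D1:**
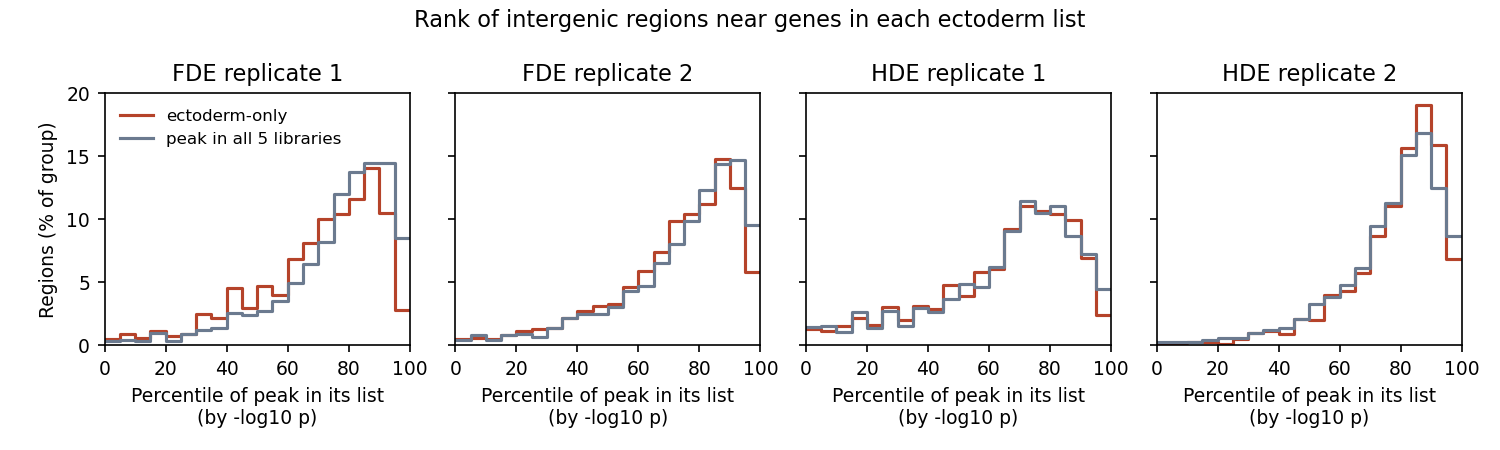
The x axis is the percentile of each region's highest-ranked summit, by −log10 p among all summits of the same list. The y axis is the share of regions in steps of 5 percentile points. Curves are for ectoderm-only intergenic regions and for intergenic regions near genes with a peak in all 5 libraries. In each of the 4 lists the ectoderm-only curve lies below the other in the highest step. In the step from 90 to 95 it lies below in FDE replicate 2 (12.5% against 14.7%) and above in HDE replicate 2 (15.9% against 12.5%).

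The regions' ranks were related between lists, least so with HDE replicate 1. Over the 1716 regions, Spearman's rho of the percentiles was 0.73 between the FDE replicates and 0.67 between the HDE replicates. It was 0.67 to 0.69 between either FDE replicate and HDE replicate 2, and 0.52 between either FDE replicate and HDE replicate 1. These are descriptions over regions that share their libraries, and all 1716 had passed the threshold in every list. A total of 1040 regions (60.6%) stood at percentile 50 or higher in all 4 lists, 457 (26.6%) at 75 or higher and 90 (5.24%) at 90 or higher. The lowest of a region's percentiles was in HDE replicate 1 for 825 regions (48.1%) and in HDE replicate 2 for 91 (5.30%).

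The summits of the libraries lay close together in most regions. The 4 summits were within 50 bp of each other in 48.5% of regions, within 100 bp in 77.4% and within 200 bp in 90.3%, with a median spread of 52.0 bp. The regions were 225 to 1870 bp wide, with a median of 494 bp. Counted over the ectoderm peaks only, intergenic regions with a peak in all 5 libraries had a median width of 549 bp, and ectoderm-only regions inside genes and in gene deserts had medians of 492 and 516 bp. The rule took out regions that overlap a forebrain peak. The nearest forebrain peak lay a median of 6.65 kb away, 94 regions (5.48%) had one within 500 bp and 1089 (63.5%) had one within 10 kb.

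The share without a forebrain peak was larger the farther the region lay from a gene. Of regions with a peak in all 4 ectoderm libraries, 35.8% (30.9 to 40.9) were ectoderm-only at 2.5 to 5 kb from a gene end, 39.6% at 5 to 10 kb and 41.5% at 10 to 20 kb. The share was 46.1% at 20 to 50 kb and 50.8% (47.4 to 54.2) at 50 to 100 kb, so the intervals at both ends of the range do not meet. Beyond the range of the rule it went on to 57.2% at 100 to 200 kb and 64.5% farther out, and at 1 kb or less it was 4.77%. The local background, meaning the read density around the peak over the library's own rate, moved with distance too. Its median, for the ectoderm library where it was highest, was 2.14 at 2.5 to 5 kb and 1.65 at 50 to 100 kb. Among regions with a local background of at most 2 the share was 42.2% (34.5 to 50.3) at 2.5 to 5 kb and 52.5% (48.5 to 56.4) at 50 to 100 kb, in the same order but with intervals that meet.

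**Figure D2:**
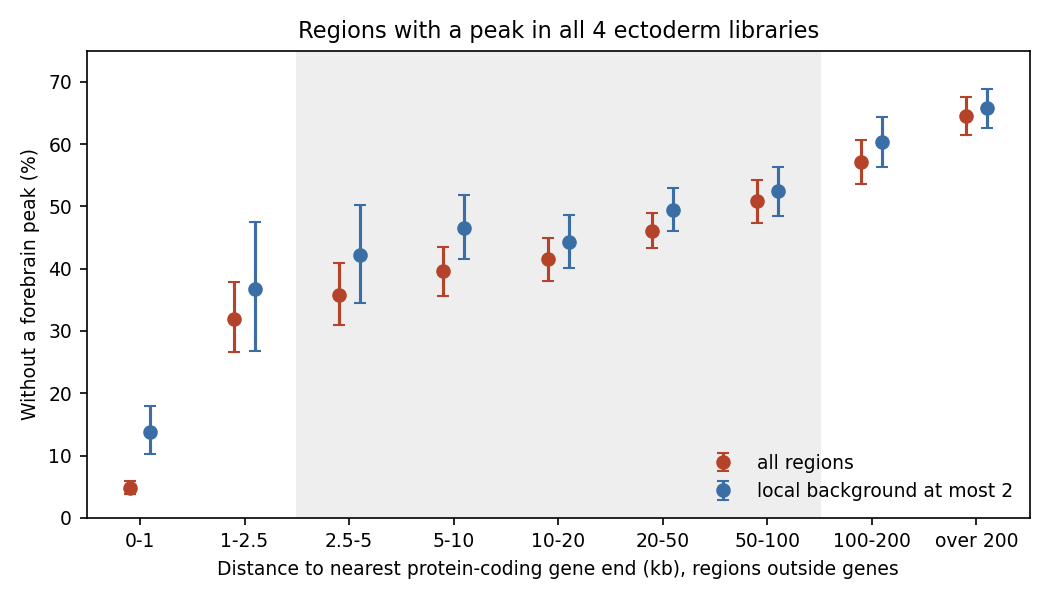
Share of regions with a peak in all 4 ectoderm libraries that had no forebrain peak (y, percent with 95% Clopper-Pearson interval) by distance from the nearest protein-coding gene end (x, kb), for all regions outside genes and for those with a local background of at most 2 times the library rate. The grey band marks the range of the ectoderm-only intergenic regions, over which the share goes from 35.8% to 50.8%.

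The ectoderm-only intergenic regions lay farther from genes than those shared with forebrain. Their median distance was 25.9 kb, against 19.6 kb for regions with a peak in all 5 libraries and 29.4 kb for forebrain-only ones, which had a forebrain peak alone. Within 20 kb of a gene end lay 42.1% (39.8 to 44.5) of them, against 50.6% (48.5 to 52.7) with all 5 and 37.4% (36.7 to 38.1) of 19520 forebrain-only regions. The midpoint fell in an annotated non-coding gene for 325 regions (18.9%, 17.1 to 20.9), against 25% (23.1 to 26.8) with all 5 and 19.4% of forebrain-only regions. For 292 regions this was a lncRNA gene, with 3 regions each in Gm11515, Gm12610, Gm29826, Gm33067, Gm38475 and Gm38722. At lncRNA promoter windows the contrast was larger, with 2.27% of ectoderm-only regions, 8.38% (7.25 to 9.62) of those with all 5 and 1.85% of forebrain-only ones. Ectoderm-only and forebrain-only intergenic regions were thus alike in being seldom at lncRNA promoters, while regions open in all libraries were there more often. Overlap was counted over the whole merged region. Its median width was 494 bp for ectoderm-only regions, 684 bp for those with all 5 and 326 bp for forebrain-only ones, and the part of width was not tested.

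At the edges of the rule, the nearest region taken lay 2531 bp from Slc22a28, with folds of 3.15 to 6.90 over the 4 ectoderm libraries, and the first one left out lay 2489 bp from Crtac1, with folds of 3.54 to 8.19. The farthest taken lay 99762 bp from Rasgef1b, with folds of 3.99 to 8.17, and the first beyond lay 100151 bp from Car8, with folds of 5.61 to 12.4.

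The regions were spread over the genome. They lay nearest to 1447 genes, of which 1228 had 1 region, 186 had 2 and 33 had 3 or more. Another ectoderm-only intergenic region lay within 20 kb of 14.6% (12.9 to 16.3) of them, against 16.8% (15.3 to 18.4) for regions with a peak in all 5 libraries. On chromosome X, 25 of 80 regions with a peak in all 4 ectoderm libraries were ectoderm-only (31.2%, 21.3 to 42.6), and on the autosomes the share was between 38.2% on chromosome 11 and 53.6% on chromosome 16. The interval for chromosome X lies below the pooled 44.1%, and those for chromosome 5 (51.9%, 45.3 to 58.4) and chromosome 16 (45.4 to 61.7) lie above it. The sex of the embryos was not given in the sources used here.

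Genes of the epidermis were nearest to a larger share of the ectoderm-only intergenic regions than of the others. The lists of basal and differentiated epidermis genes together were nearest to 16 regions (0.932%, 0.534 to 1.51), against 0.276% (0.101 to 0.600) of regions with a peak in all 5 libraries and 0.400% (0.316 to 0.498) of forebrain-only regions. The interval meets that of the regions with all 5 libraries. Its lower end stands above the 0.498% of the forebrain-only regions, but it was 0.354% to 0.441% at both stricter thresholds, with lists of equal length, with summits within 250 bp and with a local background of at most 2. Set against forebrain-only regions alone, 17.0% of the ectoderm-only and forebrain-only regions nearest to these genes were ectoderm-only, against 8.08% over all genes. The counts are small, and 32 regions were nearest to epidermis genes without HDE replicate 1, which is 0.951% of 3366.

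Among regulators of the basal layer, Trp63, the factor that heads the programme of stratified epithelia, had 1 region 59.3 kb away (chr16:25624041-25624933). Its folds were 6.96 and 9.09 in FDE replicates 1 and 2 and 6.21 and 8.44 in HDE replicates 1 and 2. The region 34.6 kb from Grhl2, a grainyhead-like factor of epithelia (chr15:37197887-37198628), had folds of 9.96 and 11.4 in FDE and 6.85 and 11.8 in HDE. Both stood at percentile 82.9 or higher in every list. Perp, a desmosomal protein and known Trp63 target, was nearest to 2 regions 19.3 and 27.2 kb away, the farther with folds of 6.89 and 5.32 in FDE and 6.54 and 11.1 in HDE. The region 16.7 kb from Tfap2a, which encodes AP-2 alpha, was weaker, with folds of 3.41 and 5.13 in FDE and 3.28 and 5.94 in HDE. Col17a1, a hemidesmosomal collagen, Epcam, an epithelial adhesion molecule, Ovol1, a repressor in epithelial differentiation, and Satb1, a chromatin organiser, had 1 region each. In all, 8 of the 28 genes of the list had a region, and the list had 9 regions (0.524%, 0.240 to 0.993), against 5 (0.230%) with all 5 libraries and 55 (0.282%) forebrain-only ones, with intervals that meet. Without HDE replicate 1 the list had 22. Forebrain-only regions lay near most of the named genes too, with 5 nearest to Trp63, 5 to Perp, 6 to Tfap2a, 3 to Grhl2 and 2 each to Epcam and Satb1. Col17a1 and Ovol1 had 0. Klf5, which had no ectoderm-only intergenic region, had 9 forebrain-only ones, and Krt5 and Krt14 had neither kind.

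Genes of the differentiated layers had 7 ectoderm-only intergenic regions (0.408%, 0.164 to 0.839), against 1 (0.0460%, 0.00117 to 0.256) with all 5 libraries and 23 (0.118%, 0.0747 to 0.177) forebrain-only ones, with intervals that meet. The strongest lay 8.03 kb from Lor, which encodes loricrin, the main protein of the cornified envelope (chr3:92090866-92091488). Its folds were 12.4 and 10.0 in FDE and 7.64 and 14.2 in HDE, and it stood at percentile 92.8 or higher in every list. Sbsn, a secreted protein of suprabasal cells, had a region 3.07 kb away with folds of 6.93 and 6.46 in FDE and 3.61 and 7.49 in HDE. The region 3.75 kb from Krt1, a keratin of suprabasal cells, was weak, with folds of 2.59 and 2.75 in FDE and 3.57 and 3.95 in HDE. Prdm1, Klf4, a barrier transcription factor, Tgm3, a transglutaminase, and Dsc1, a desmocollin, had 1 region each. A local background over 2 was found for 3 of the 7 regions, so that 4 were left when it was limited to 2. The list had 4 regions of 1988 with lists of equal length. Forebrain-only regions nearest to the named genes were 8 for Klf4, 3 for Dsc1, 2 for Tgm3 and 1 for Prdm1, and 0 for Lor, Sbsn and Krt1.

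Genes of epithelial cell junctions had 7 regions (0.408%, 0.164 to 0.839), against 6 (0.276%) with all 5 libraries and 31 (0.159%, 0.108 to 0.225) forebrain-only ones, with intervals that meet. Without HDE replicate 1 the list had 13. Nectin1, a cell adhesion molecule of adherens junctions, was nearest to 3 of them, between 16.8 and 43.9 kb away, with folds of 2.68 to 7.58. The region 73.0 kb from Dsc3, a desmocollin of the basal layer, was the strongest of the list, with folds of 10.5 and 11.3 in FDE and 6.21 and 13.4 in HDE. Cldn1 and Cldn23, claudins of tight junctions, and Gjb5, a connexin, had 1 region each. Of forebrain-only regions, 6 each were nearest to Nectin1 and Cldn23, 5 to Gjb5, 3 to Cldn1 and 2 to Dsc3.

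Genes of the EGF receptor family and their ligands, which drive keratinocyte growth, had 6 regions (0.350%, 0.128 to 0.759), against 2 (0.0921%) with all 5 libraries and 32 (0.164%) forebrain-only ones, with intervals that meet. The regions nearest to the ligand genes Epgn and Btc, both on chromosome 5, were the strongest. That 3.53 kb from Epgn (chr5:91038459-91039033) had folds of 14.0 and 11.9 in FDE and 8.87 and 18 in HDE, and that 11.1 kb from Btc (chr5:91413840-91414369) had folds of 12 and 14 in FDE and 8.51 and 13.4 in HDE. Both stood at percentile 92.0 or higher in every list. The receptor Egfr had a region 91.7 kb away with folds of 7.83 and 10.0 in FDE and 8.82 and 13.6 in HDE. Tgfa, another ligand, Erbb4, another receptor, and Errfi1, an inhibitor of the receptor, had 1 region each. Without HDE replicate 1 the list had 11 regions. Of forebrain-only regions, 5 were nearest to Btc, 4 each to Egfr, Erbb4 and Errfi1, 1 to Tgfa and 0 to Epgn.

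AP-1 genes had 7 regions in all, near 4 of the 9 genes (0.408%, 0.164 to 0.839), against 4 (0.184%, 0.0502 to 0.471) with all 5 libraries and 15 (0.0768%, 0.0430 to 0.127) forebrain-only ones. The ectoderm-only share of ectoderm-only and forebrain-only regions was 31.8% (13.9 to 54.9) there, against 8.08% over all genes. Fosl2, a subunit that keratinocytes express, had 2 of them, 15.1 and 25.4 kb away, with folds of 5.73 and 6.02 in FDE and 5.21 and 8.84 in HDE at the nearer. Atf3 and Fos also had 2 each and Fosb had 1, at folds of 2.17 to 6.30. All but 1 of the 7 had a local background over 2. The list had 4 regions with lists of equal length and 3 at a −log10 q of at least 5. Of the Hippo pathway, which limits the growth of epithelia, only Tead1, a DNA-binding partner of Yap1, had a region, 15.9 kb away.

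Shares near genes of limb patterning had intervals that meet those of the other groups. The list for the apical ectodermal ridge and limb ectoderm had 5 regions (0.291%, 0.0947 to 0.679), against 0.368% with all 5 libraries and 0.261% of forebrain-only regions, 1 each near Trp63, En1, Dlx6, Bmp7 and Msx2. En1, which specifies ventral limb ectoderm, had a region 43.5 kb away with folds of 7.57 and 7.56 in FDE and 4.41 and 9.46 in HDE. The region 2.72 kb from Dlx6, within the lncRNA gene Dlx6os1, had folds of 4.27 and 7.51 in FDE and 4.65 and 7.58 in HDE. Hair and nail genes had 3 regions (0.175%, 0.0361 to 0.510), near Hoxc13, Bmp4 and Msx2, against 0.506% with all 5 and 0.287% of forebrain-only regions. Without HDE replicate 1 both lists had 10. Of forebrain-only regions, 10 were nearest to Dlx6, 7 to Msx2, 5 each to Trp63, En1 and Bmp4, 3 to Bmp7 and 0 to Hoxc13.

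HoxC genes, the subject of the series, were nearest to 3 ectoderm-only intergenic regions (0.175%, 0.0361 to 0.510), against 1 (0.0460%) with all 5 libraries and 5 (0.0256%, 0.00832 to 0.0598) forebrain-only ones, with intervals that meet. The 30 other Hox genes were nearest to 0, 0 and 3. Without HDE replicate 1 the HoxC count was 5, and at a −log10 q of at least 5 it was 1. The region 82.7 kb from Hoxc13, a gene of hair and nail formation, had folds of 4.28 and 3.58 in FDE and 3.0 and 5.25 in HDE. That 7.72 kb from Hoxc12, inside the lncRNA gene Hotair, had folds of 5.16 and 4.85 in FDE and 4.19 and 6.83 in HDE. That 38.3 kb from Hoxc4 had folds of 4.19 and 4.97 in FDE and 2.82 and 3.49 in HDE. All of these values but that near Hoxc12 in HDE replicate 1 lay below the medians over the 1716 regions, and each region had a local background over 2, of 2.06 to 2.49.

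Genes that mark other tissues were nearest to few of the regions. Forebrain progenitor genes had 2 (0.117%, 0.0141 to 0.420), against 0.461% (0.371 to 0.566) of forebrain-only regions. These lay near Emx2, with folds of 6.90 to 13.2, and Nkx2-1, with folds of 3.37 to 8.77, so that a region near a forebrain gene could be strong in ectoderm. Among neuron genes, Bcl11b, which is also active in epidermis, Map2 and Neurod6 were each nearest to a region. Limb mesenchyme genes had 4 (0.233%), near Pitx1, Gli3, Msx1 and Pdgfra, against 0.276% with all 5 and 0.451% of forebrain-only regions. Melanocyte genes had 2, near Dct and Tyrp1, enzymes of pigment synthesis, with folds of 3.89 to 9.41 over both. Endothelium had 1 (Emcn), blood and immune cells 0 and housekeeping genes 1 (Ywhaz).

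**Figure D3:**
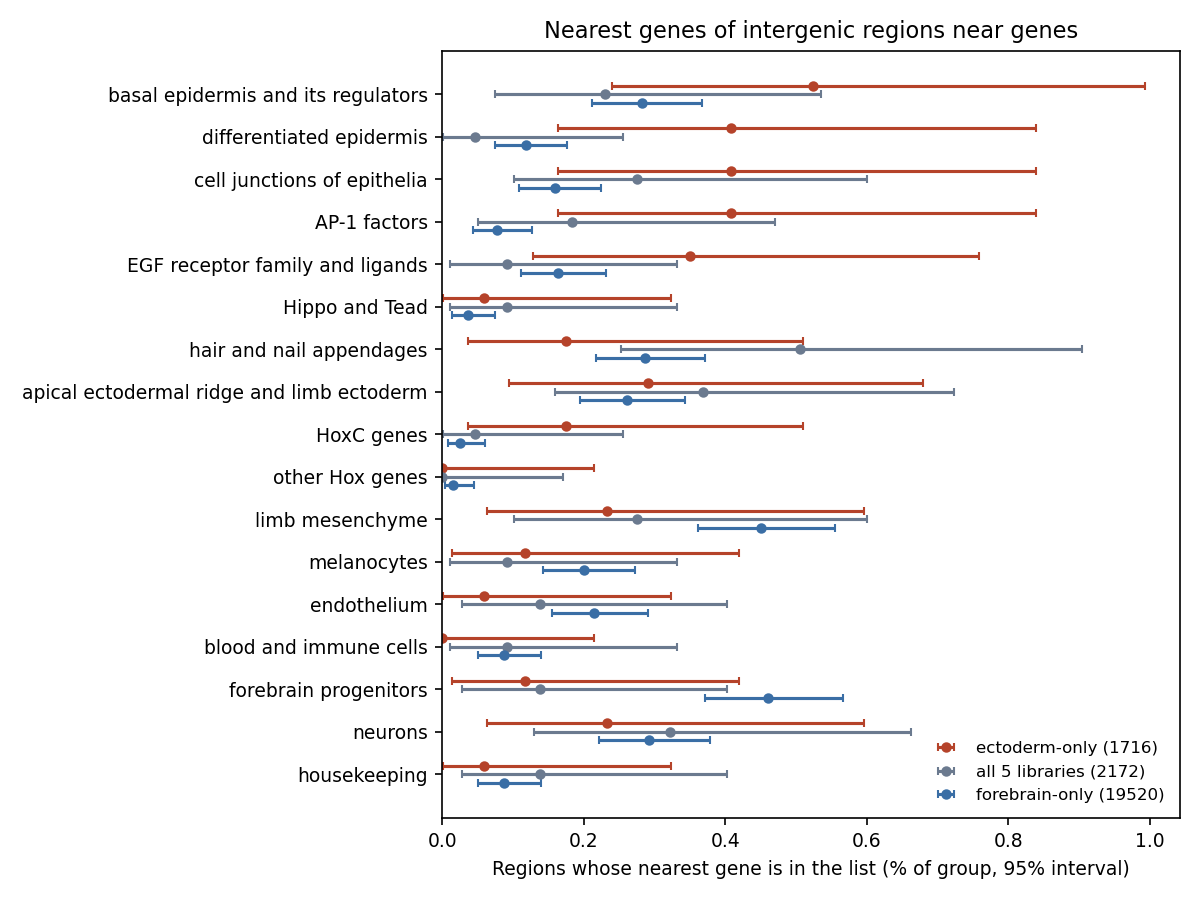
Share of regions whose nearest protein-coding gene is in each of 17 lists (x, percent of the group with 95% Clopper-Pearson interval), for ectoderm-only intergenic regions, for intergenic regions near genes with a peak in all 5 libraries and for forebrain-only ones. Points of the ectoderm-only group lie farthest right in the lists of epidermis, junction, AP-1, EGF receptor and HoxC genes, and farthest left or level in those of hair and nail, other Hox, limb mesenchyme, endothelium, blood, forebrain progenitor, neuron and housekeeping genes, with wide intervals throughout.

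The 10 regions that ranked highest in all 4 lists, by their lowest percentile, lay near genes outside these lists. The first was 21.5 kb from Slamf9, a receptor of immune cells (chr1:172436743-172437343), with folds of 14.2 and 16.7 in FDE replicates 1 and 2 and 10.4 and 18.3 in HDE replicates 1 and 2, and stood at percentile 98.2 or higher in every list. The next were 26.8 kb from Tnfsf4, which encodes a ligand of T cells, with folds of 15.1 and 14.8 in FDE and 10.9 and 19.1 in HDE, and 7.52 kb from Dbi, an acyl-CoA-binding protein, with folds of 15.4 and 18.1 in FDE and 9.57 and 18.2 in HDE. The region 32.2 kb from Sema3e, a semaphorin, had folds of 15.5 and 16.1 in FDE and 11.0 and 15.9 in HDE. That 16.4 kb from S100a10, an annexin partner at the end of the epidermal differentiation complex, had folds of 14.9 and 14 in FDE and 9.63 and 17.0 in HDE. The other five lay 3.69 kb from Chchd7, 72.7 kb from Atp10b, a lipid flippase, 10.5 kb from Ripk2, a kinase of innate immunity, 9.78 kb from Olfr871, an odorant receptor gene, and 81.4 kb from Slitrk6, a membrane protein of neurons, and their folds were 9.47 to 19.6. None of the 10 had a forebrain peak within 4 kb, and the gap was 182 kb near Olfr871. Their local background was high as well, at 1.71 near Olfr871 and 2.23 to 3.18 in the rest, against a median of 1.66 over the 1716 regions.

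**Figure D4:**
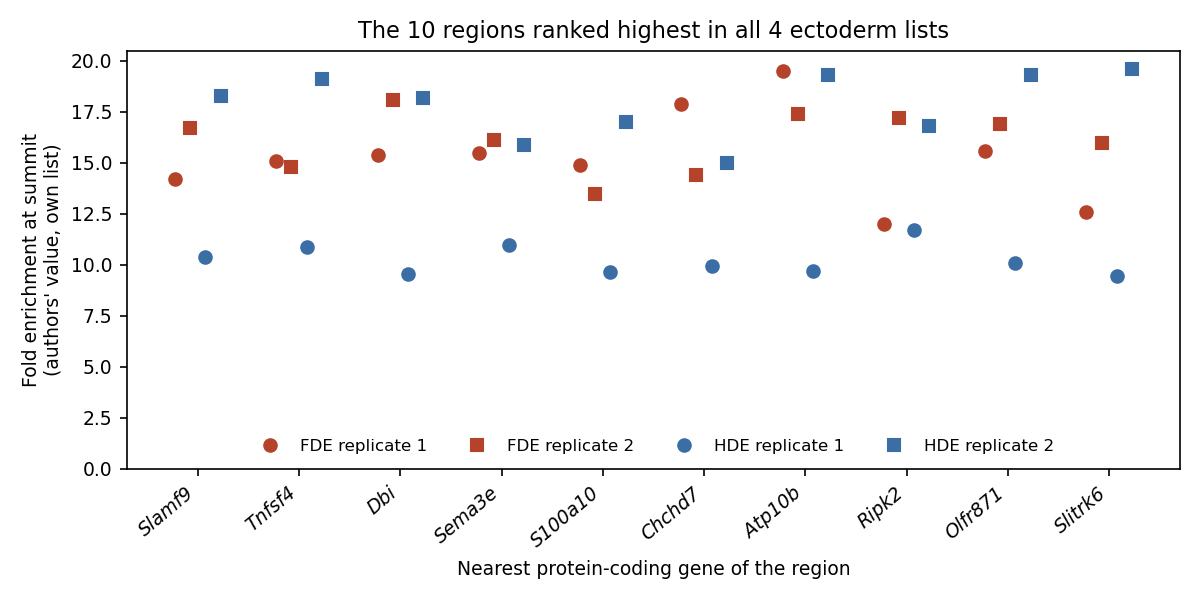
Fold enrichment at the summit (y, the authors' value in each library's own list) in the 2 FDE and 2 HDE libraries for the 10 ectoderm-only intergenic regions with the highest lowest percentile over the 4 lists (x, named by nearest gene). HDE replicate 1 is the lowest of the 4 values in each of the 10 regions, and the other 3 libraries lie between 12 and 19.6.

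Some stretches held several of the regions. Apart from Cwc22 and Zfp970, described last, Ndfip2, an adaptor of ubiquitin ligases, Atp10b, Spin1, a reader of histone marks, Cep78, a centrosomal protein, and Myl10, a myosin light chain, were nearest to 4 each. Tiam1, an activator of Rac, Zfp703, a zinc finger repressor, Kcna4, a potassium channel, Nxt1, an mRNA export factor, Sema3e, Sptlc3, a subunit of sphingolipid synthesis, Smad7, an inhibitor of TGF-beta signals, and Mtap, an enzyme of methionine salvage, had 3 each and were those with the highest mean percentile among the genes with 3. The 4 regions near Spin1 had no forebrain-only region and none with all 5 libraries beside them, and their folds were 3.38 to 11.2. Near Ndfip2 the counts were 4 ectoderm-only, 3 with all 5 and 6 forebrain-only, so that the tissues' regions lay side by side. The 3 regions near Sptlc3 lay within 38.2 kb of each other, and the strongest had folds of 9.52 and 12.5 in FDE and 7.65 and 19.7 in HDE. Of the 3 near Mtap, 2 lay in the lncRNA gene Wincr1.

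Counted in steps of 1 Mb, 1057 steps held a region and 650 of these held 1. Outside the Cwc22 and Zfp970 stretches the most were in the step from 93000001 to 94000000 on chromosome 3, in and beside the epidermal differentiation complex, where 8 of the 12 intergenic regions near genes with a peak in all 4 ectoderm libraries were ectoderm-only. They lay nearest to Crnn, Lce1m, Rptn, S100a10, S100a11 and Tdpoz1, and 5 had a local background over 2. Crnn and Rptn encode S100-fused proteins of the cornified layer, and Lce1m a late envelope protein. The region 12877 bp from Crnn had folds of 12.7 and 13.3 in FDE and 6.15 and 13.3 in HDE, and that 6541 bp from Lce1m had 10.0 and 9.25 in FDE and 6.76 and 11.8 in HDE. A step of chromosome 5 near Speer genes also held 8 of 12, of which 1 had a local background over 2. The HoxC step of chromosome 15 (from 102000001) held 7 of 10, near Calcoco1, Rarg, Sp1, Hoxc12 and Hoxc13, and 5 of these had a local background over 2. The step before it, with the keratin cluster, held 6 of 11, near genes such as Krt1, Krt2, Krt72 and Krt80, all 6 with a local background over 2. Away from such clusters, the step of chromosome 2 near Cd93, Cst3 and Nxt1 held 7 of 10, and that of chromosome 17 near Eml4, Haao and Pkdcc held 6 of 12, with 2 and 4 over that background. The steps were picked for their high counts of ectoderm-only regions, and that choice itself favours high ectoderm-only shares in them. Over all intergenic regions near genes with a peak in all 4 ectoderm libraries the share was 44.1%, and no step was tested against it.

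The genes with most ectoderm-only intergenic regions were Cwc22, a splicing factor, with 10, and Zfp970, a zinc finger gene, with 8, and both stretches had a high local background. Near Cwc22 the local background of the 10 regions had a median of 6.25 times the library rate, near Zfp970 of 3.44, and over all 1716 regions of 1.66. Folds were low there, at 1.85 to 4.40 near Cwc22 and 2.02 to 7.78 near Zfp970. No forebrain-only region was nearest to either gene, and 1 region with all 5 libraries was nearest to each. Over all the regions, 462 (26.9%, 24.8 to 29.1) had a local background over 2, against 38.1% (36.1 to 40.2) of regions with a peak in all 5 libraries, and 13 had one over 5, up to 11.0. Both Zfp970 regions with a background under 2 had higher folds, of 3.55 to 7.78. The part of the background in the calls was not tested. With the background limited to 2, 1254 regions remained by the same rule and 48.3% of the intergenic ectoderm regions near genes were ectoderm-only.

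**Figure D5:**
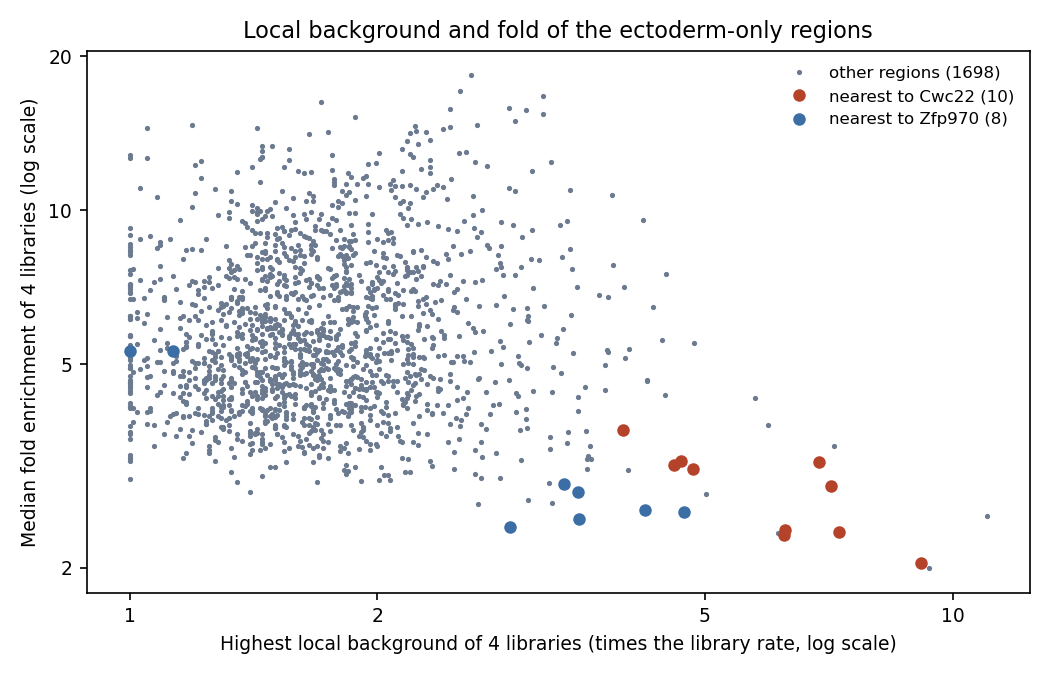
Highest local background over the 4 ectoderm libraries (x, times the library rate, log scale) against the median fold enrichment over the 4 libraries (y, log scale) for the 1716 ectoderm-only intergenic regions. The 10 regions nearest to Cwc22 and 6 of the 8 nearest to Zfp970 lie above 2 on the background axis and low on the fold axis.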

How the data were processed

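The authors deposited 1 peak list per library, 5 in all, so peaks were called per library. Tools named in the submitters' processing notes are MACS2 2.1.1.20160309, Bowtie2 2.3.5, cutadapt 1.16, bedtools and Picard, with mm10 as the build. Any shift of reads to the transposase cut was not given in the sources used here. Each deposited row gives an interval, a summit offset, a score (a rescaled significance, not used), a fold enrichment over local background, and the p-value and q-value of the summit as −log10. Values of −log10 q began at 1.30 or 1.31, a q of 0.05. The authors' fold and −log10 p belong to their own list and only describe or rank peaks in it. Read totals were not used here.

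Intervals listed with several summits counted as 1 peak in the list lengths given. Percentiles, lists of equal length and library rates were taken over all listed summits. Gene ends came from a RefSeq table (GRCm38.p6, the same assembly), with 21631 protein-coding genes on the chromosomes used and no strand. Summit pileup and local background were solved from the Poisson model that MACS2 uses, meeting p within 0.01 for 100% of peaks, and the most frequent background of a library (3.10 to 4.62 reads per position) was its rate. Merging, placement and this solution were tested on simulated data (Python 3.11.15, numpy 2.4.6, pandas 2.3.3, scipy 1.17.1). The members, the 17 gene lists and the tests were chosen with earlier results of these data known. Named regions are the 10 with the highest lowest percentile and those nearest to a Hox gene. Named genes are the 15 with most regions, ties going to the higher mean percentile, and up to 4 per list. Other list genes, the lncRNA windows and the 1 Mb steps were named after their values were seen. Motif shares of the regions themselves were planned and not run, since no genome sequence was used here. Alternatives changed the threshold, list length, overlap, forebrain gap, position, distance limits, gene table, chromosomes, background and libraries.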

Additional observations from a re-analysis of the deposited data

Results flagged for a closer look

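Outside chromosomes 1 to 19 and X, which the rule left out, 33 regions were ectoderm-only. They are given because they lie in data that the comparisons do not use. Of 289 regions there, 67 had a peak in every ectoderm library and 34 in all 5. The 33 comprised 24 on chromosome Y and 9 on unplaced or unlocalized sequence.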

How the results depend on the processing

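The count of 1716 ectoderm-only intergenic regions was 1075 at a −log10 q of at least 5 in every list, 977 with that threshold for presence only, and 1808 to 3366 with 1 ectoderm library left out, the highest without HDE replicate 1. The share of 44.1% was 46.4% and 42.1% at those thresholds, 57.0% with lists of equal length, 46.8% with summits within 250 bp, 41.7% with no forebrain peak within 500 bp, 46.0% outside non-coding genes, 48.3% with a local background of at most 2, and 44.7% to 45.8% with 1 library left out. The share within 20 kb of a gene end (42.1%) was 51.6% with limits of 5 and 50 kb, by construction, and 39.4% with a local background of at most 2. The share in a non-coding gene (18.9%) was 0% when these genes were left out, by construction, and 16.7% with that background. The share near epidermis genes (0.932%) was 1.86% when any gene end within 100 kb counted. Where no cause is named, the cause was not tested. Of the other values, for single genes, gene lists, lncRNA promoter windows and background, 91 moved and 385 did not, over 14 alternatives. A change of direction was not looked for. Motif shares of the regions were not run. No paired analysis was possible because no test across samples was made and forebrain has 1 library. The lists differed in length, the part of sequencing depth in this was not tested, and weak forebrain peaks under the threshold were not seen.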
